A study of Drosophila melanogaster with 24 samples.

Results

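The genes of the proteasome were followed at their transcription start sites (TSSs) in Drosophila melanogaster embryos. Members were the genes whose symbol in the authors' table begins with Prosalpha, Prosbeta, Rpn or Rpt. Each gene was represented by its row of highest mean among rows annotated as promoter-TSS or 5' UTR. The rule found 42 symbols in 73 rows, and 37 genes had such a row, of 10762 genes and 45839 TSSs in all. Of the 37, 31 encode subunits of the particle, namely 6 of the alpha ring (Prosalpha2 to Prosalpha7), 7 of the beta ring, 6 ATPases of the base, 4 other base subunits and 8 of the lid. The other 6 are paralogs with an R or T in their symbol. Prosalpha4T1, Prosalpha4T2, Prosbeta5R1, Prosbeta5R2 and Rpn13R had rows of other annotation classes alone and are not described further.

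The proteasome is the protease that degrades proteins tagged with ubiquitin. Its core, the 20S particle, is a barrel of alpha rings, which gate the entry, and beta rings, which hold the proteolytic sites. A regulatory particle caps the barrel. Its base holds the Rpt ATPases, which unfold substrates, and scaffold and ubiquitin-binding subunits. Its lid carries Rpn11, the enzyme that removes ubiquitin. In early Drosophila embryos RNA laid down by the mother comes first and zygotic transcription later, and several proteasome subunits have paralogs in this species that are known from the testis.

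The assay was csRNA-seq, in which capped short RNAs of 18 to 65 nt are selected for their 5′ cap. Read starts are meant to mark initiation by RNA polymerase II. The strain Cas9 was tinWT, while F3 and M6 are separate strains of the genotype tinmDPE, read here as a change of the downstream promoter element of the heart and mesoderm gene tinman (tin). Dechorionated embryos of each strain, aged at 25 °C, were collected at 0-2, 2-4, 4-6 and 6-8 h and gave 1 csRNA library per window, 12 in all. Each library comes from whole embryos, so fewer cells of a type and less RNA per cell cannot be told apart. Whether signal at 0-2 h came from initiation in the embryo or from RNA laid down by the mother was not tested. The labels name no repeat collections within a strain, so the strains serve as replicates of a window. In the window contrasts the level of each strain is fitted, so p-values measure how far the strains differ in their changes between windows. In the genotype comparison they measure the spread of libraries around the window and genotype fit. Because tinWT is 1 strain, genotype and strain cannot be told apart. Values are the authors' regularized log (rlog) values on a log2 scale for the tags of each TSS. They are not per unit of length, so levels of different genes are compared as start-site signal alone.

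The libraries differed in ways that move with the window. In the order of the windows they held 2632187 to 2908161, 3570383 to 4997648, 3413876 to 6616015 and 6705989 to 10553406 tags. Summed levels of the maternal and pole cell markers nos, osk, bcd and pgc (log2) were 10.09 to 10.75, 7.55 to 9.08, 6.12 to 6.68 and 5.21 to 6.75 in these windows. The tinWT library of 2-4 h stood apart from the other libraries of its window, since all 4 maternal markers were lowest there and 5 of 6 blastoderm and 4 of 4 later embryo markers were highest there. At 2-4 h nos stood at 4.22 in tinWT against 5.95 in F3 and 5.85 in M6. The tinWT library of 4-6 h had the fewest tags and called TSSs of its window (3413876 and 10220), and 4 of 4 later embryo, 4 of 6 blastoderm and 3 of 4 maternal markers were lowest there. Values without these libraries are given beside some of the results that use them, and the other differences are printed without this check. Within 1 window no such value exists for the genotype, since no tinWT library would be left. Of the ovary and fat body list 1 of 5 genes had a row (Cp38, -1.66 to -0.89), and of the testis list 2 of 6 had one (bam, whose summed level with can was 7.24 to 7.98 at 0-2 h and 3.48 to 3.55 at 6-8 h). The targeted gene tin was lower in F3 and in M6 than in tinWT in 4 of 4 windows.

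Sequence around the start was examined because promoters of housekeeping genes in this species share short motifs. The window ran from 250 bases before to 50 after the position called most often, in the dm6 sequence of RefSeq. The motif GTCATCG was found downstream of the start in 4 of 31 subunit genes (12.9%) and in 37 of 10762 genes (0.344%), and it was chosen after the member sequences had been read, so its share is a description without a test. With the T before it (TGTCATCG) it was in Prosbeta2, Prosbeta4 and Prosbeta5, and in 12 of 10762 genes (0.112%). Prosbeta2 and Prosbeta5 are proteolytic subunits of the beta ring, Prosbeta4 is a beta subunit without a proteolytic site and Rpt5 is an ATPase of the base. Below, 30 bases around the motif are printed 5′ to 3′ on the strand of the gene, with the motif in capitals, to show where it lies next to the start used. Prosbeta5 is not shown.
Prosbeta2: acaattttgtttGTCATCGcgctcggcaga
Prosbeta4: tttaacttgcttGTCATCGcattcggcaac
Rpt5: agaaatttacaaGTCATCGacagagtgttt
With the start used as base +1, the motif begins at +5 in Prosbeta2 (chr3L:14999986-15000015, plus strand), at +5 in Prosbeta4 (chr2L:16732092-16732121, minus strand) and at +3 in Rpt5 (chr3R:23752907-23752936, plus strand). That start was called in 12 of 12 libraries for Rpt5, in 11 of 12 for Prosbeta4 and in 5 of 11 for Prosbeta2, whose other libraries had it 6 or 38 bases upstream, so the distance in Prosbeta2 holds for those 5. All 3 rows were annotated as promoter-TSS by the authors.

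A DNA replication-related element (DRE), the site known for the factor DREF, was searched by its core ATCGAT on both strands. It was in 18 of 31 subunit start regions (58.1%, 95% Wilson interval 40.8 to 73.6), in 24.8% of all 10762 and in 38.8% of 85 ribosomal protein genes. The longer palindrome TATCGATA, which contains the core, was in 10 of 31 (32.3%), against 10.5% of all. The core GGTCACAC of Motif 1, known as the site of M1BP, was in 6 of 31 (19.4%), against 9.61% of all. The first pair of lines shows the DRE core and the other lines Motif 1, each in capitals on the strand of the gene.
Prosbeta6: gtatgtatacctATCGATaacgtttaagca
Prosalpha6: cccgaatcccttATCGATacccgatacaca
Rpn7: gataattttggGGTCACACtggtagtacat
Rpn1: gttcgccgcgcGGTCACACtgcaaaaagcg
Prosalpha4: acccatgctgcGGTCACACtgcggcatttc
The starts used here were called in 5 of 10 libraries for Prosbeta6, 11 of 11 for Prosalpha6, 8 of 11 for Rpn7, 5 of 12 for Rpn1 and 11 of 12 for Prosalpha4. From these starts, the core begins at -45 in Prosbeta6 (chr3L:16610444-16610473, minus strand) and at -76 in Prosalpha6 (chr2L:10221324-10221353, plus strand). Motif 1 begins at -9 in Rpn7 (chr3R:22462018-22462047, minus strand), at -6 in Rpn1 (chr3L:19915039-19915068, plus strand) and at -36 in Prosalpha4 (chrX:16276292-16276321, plus strand).

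The remaining motifs were each found in 8 or fewer of the subunit start regions. Motif 6 (GTATTTTT) was in 8 of 31 (25.8%, against 7.87% of all), and the antioxidant response element TGACNNNGC, the kind of site bound by Cap-n-collar factors, was in 5 (16.1%, against 9.51%). The E-box CAGCTG was in 2 (6.45%, against 20.8%). An initiator (TCA followed by G or T, a T, and C or T) at the start was found in 3 (9.68%, against 15.3%), and TATAAA in the TATA region from 45 to 16 bases upstream in 0 of 31 (against 6.42%). With 100 in place of 250 bases upstream the DRE core was in 35.5%, against 18.6% of all. A match is a string of letters and no evidence that a factor was bound.

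**Figure D1:**
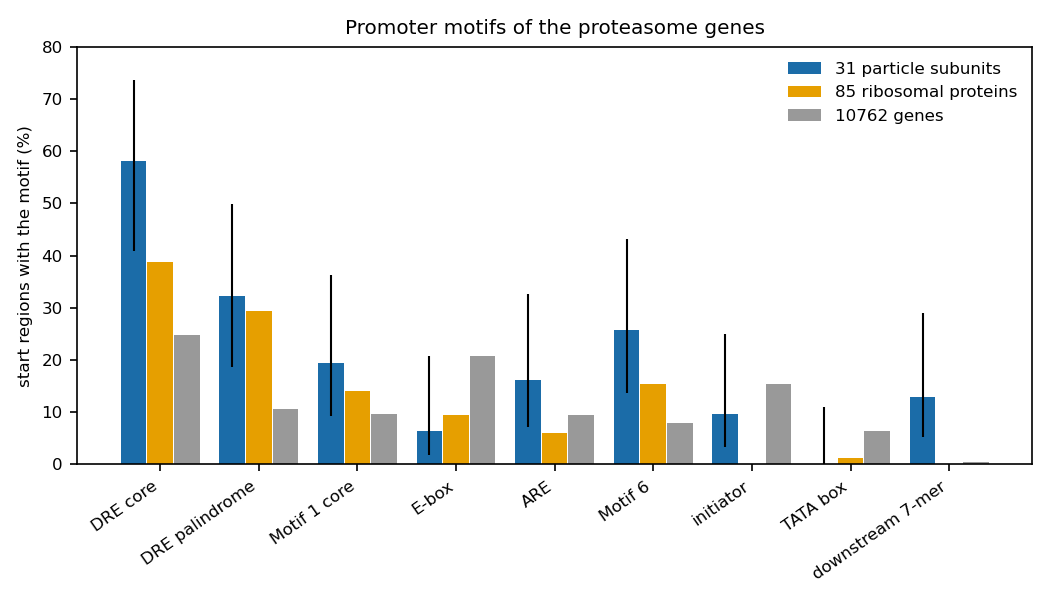
Share of start regions (%) that hold each motif in the 31 particle subunits (bars with 95% Wilson intervals), 85 ribosomal protein genes and 10762 genes. The motif GTCATCG was chosen after the member sequences had been read, so its share and interval are descriptions without a test. The DRE core stands at 58.1% in the subunits and at 24.8% in all genes, and the TATA box at 0 in the subunits.

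All 31 subunit rows lay on the strand of their gene, and 29 of 31 had a mean above that of the median gene. The authors called a start in all 12 libraries for 13 of 31 subunits, against 2589 of 45839 TSSs. Those TSSs are of all annotation classes, while each subunit row was chosen as the highest of its gene. The shares are therefore not like for like. In the values that follow, the 3 numbers of each window are tinWT, F3 and M6, in that order, and the windows run 0-2, 2-4, 4-6 and 6-8 h.

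In the alpha ring, Prosalpha3 had the highest mean, 9.01, and read 10.08, 10.31 and 9.83 at 0-2 h, then 8.76, 9.38 and 9.47, then 8.09, 8.45 and 8.41, and lastly 8.23, 8.35 and 8.70 at 6-8 h. Prosalpha5 had the lowest, 4.67, and read 6.04, 5.16 and 5.28 at 0-2 h, then 4.61, 4.67 and 4.90, then 4.06, 4.50 and 3.65, and lastly 4.33, 4.46 and 4.42 at 6-8 h. Both were higher at 0-2 h than at 6-8 h in 3 of 3 strains. In the beta ring, Prosbeta1, which carries the caspase-like site, led with 9.81 and read 10.70, 10.28 and 9.66 at 0-2 h, then 9.33, 10.22 and 10.27, then 9.52, 9.49 and 9.35, and lastly 9.87, 9.75 and 9.36 at 6-8 h. Prosbeta3, a beta subunit without a proteolytic site, was lowest at 6.67 and read 7.72, 7.88 and 7.68 at 0-2 h, then 6.75, 6.89 and 7.36, then 5.65, 6.24 and 5.96, and lastly 5.63, 6.07 and 6.24 at 6-8 h. The windows 0-2 and 6-8 h overlapped for Prosbeta1 and were separate for Prosbeta3.

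Among the ATPases of the base, Rpt3 had the highest mean, 8.68, and read 9.54, 9.75 and 9.28 at 0-2 h, then 8.33, 8.52 and 8.76, then 7.89, 8.51 and 8.36, and lastly 8.37, 8.44 and 8.37 at 6-8 h. Rpt1 had the lowest, 5.37, and read 6.40, 6.67 and 6.07 at 0-2 h, then 4.82, 5.66 and 5.72, then 3.97, 5.50 and 4.85, and lastly 4.32, 5.24 and 5.26 at 6-8 h. In both genes the 3 libraries of 0-2 h were above all later ones. Of the other base subunits, the scaffold Rpn1, a docking site for ubiquitin shuttles, had the highest mean of all members, 9.88, and read 11.32, 10.87 and 10.36 at 0-2 h, then 9.48, 9.56 and 9.34, then 10.22, 9.37 and 9.28, and lastly 9.93, 9.42 and 9.39 at 6-8 h. The ubiquitin receptor Rpn10 was lowest of its class at 7.42 and read 8.91, 8.19 and 7.52 at 0-2 h, then 6.74, 7.24 and 7.41, then 8.04, 6.86 and 6.85, and lastly 7.46, 7.11 and 6.75 at 6-8 h. At 4-6 h tinWT was the high library for both.

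In the lid, the scaffold subunit Rpn6 had the highest mean, 9.83, and read 10.98, 10.67 and 10.04 at 0-2 h, then 10.22, 10.06 and 9.60, then 9.14, 9.71 and 9.45, and lastly 9.44, 9.30 and 9.32 at 6-8 h. Rpn5, another lid scaffold, was the lowest subunit of the particle at 2.87, was called in 3 libraries alone and read 4.67, 3.10 and 3.61 at 0-2 h, then 2.53, 2.13 and 2.81, then 2.65, 2.78 and 2.38, and lastly 2.89, 2.39 and 2.50 at 6-8 h. Its low rlog values are shrunk towards their mean, so its differences are understated.

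The paralogs were low, apart from Rpt3R. Rpt3R had a mean of 5.88 and Prosalpha3T, a paralog of Prosalpha3, a mean of 0.42. The rows chosen for Rpt3R, Prosbeta2R2 and Prosbeta4R2 lie on the strand opposite to the gene and so need not be starts of these genes, and the row of Rpt3R on its own strand had a mean of 2.94. Rpt3R read 5.28, 6.48 and 6.22 at 0-2 h, then 6.20, 6.23 and 5.55, then 6.46, 5.97 and 6.09, and lastly 5.43, 5.08 and 5.54 at 6-8 h. Prosalpha3T read 0.0, 1.33 and -0.02 at 0-2 h, then -0.07, 1.76 and 1.06, then 0.0, -0.13 and 0.74, and lastly 0.25, -0.12 and 0.27 at 6-8 h, near the floor in most libraries.

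**Figure D2:**
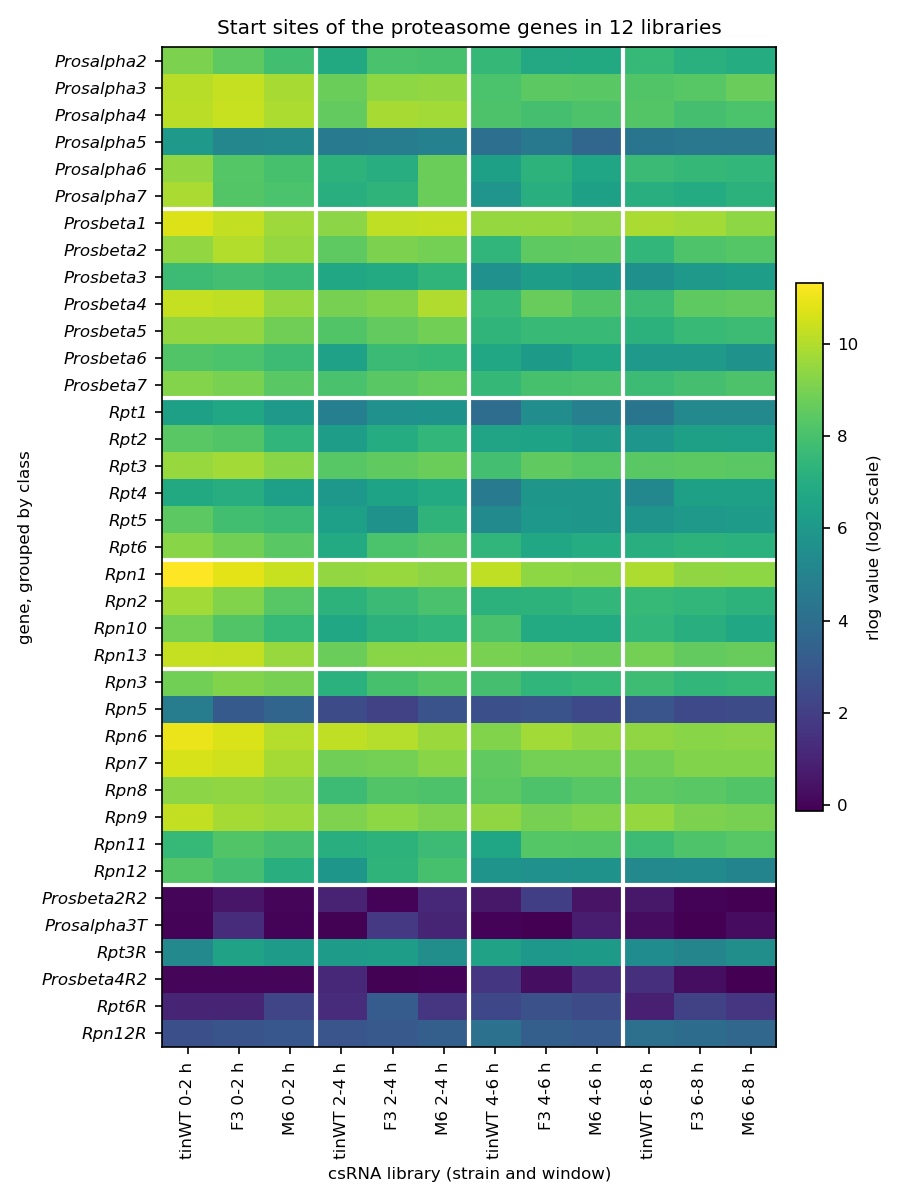
Deposited rlog value (log2 scale, colour) of the 37 genes (rows, grouped by class in the order alpha ring, beta ring, base ATPases, other base subunits, lid, paralogs) in the 12 csRNA libraries (columns, grouped by window). Most subunits are brightest in the 3 libraries of 0-2 h, and the paralogs other than Rpt3R are dark throughout.

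Start-site signal of most subunits fell over the course. From 0-2 to 6-8 h, 26 of 31 subunits fell, 11 of 13 in the 20S core and 15 of 18 in the regulatory particle (limma on all TSSs, adjusted p under 0.05). In the background 7.50% of all TSSs and 20.4% of the 1 row per gene fell, and 9.88% of all TSSs rose. The median log2 difference was -1.66 in the 20S core and -1.26 in the regulatory particle, against -0.25 over 1 row per gene and -0.08 over all TSSs. Ribosomal protein genes, another set used in every cell, had a median of -1.31, with 64 of 85 fallen. Over all 4 windows the F test of limma called 26 of 37 members, all of them subunits. These were 12 of 13 in the core and 14 of 18 in the regulatory particle. Of all TSSs 19.9% passed, of the 1 row per gene 36.3% and of the 85 ribosomal protein genes 67.1%.

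The largest fall was that of the lid subunit Rpn12, which in yeast joins the lid last. It read 8.27, 7.89 and 7.07 at 0-2 h, then 5.93, 7.33 and 8.0, then 5.80, 5.66 and 5.71, and lastly 5.26, 5.33 and 5.03 at 6-8 h. The libraries of 6-8 h were low in every strain and did not overlap those of 0-2 h, and the difference of -2.54 ± 0.44 (SE, 5.80-fold lower) had an adjusted p of 6.94e-04 with limma. Prosbeta6, a beta subunit without a proteolytic site, read 8.20, 8.07 and 7.70 at 0-2 h, then 6.41, 7.69 and 7.52, then 6.68, 6.09 and 6.58, and lastly 6.01, 6.03 and 5.69 at 6-8 h. It fell by a log2 difference of -2.08 ± 0.35 (limma, adjusted p = 5.46e-04), with no overlap between the ends of the course. The alpha subunit Prosalpha4 read 10.12, 10.34 and 9.92 at 0-2 h, then 8.58, 9.81 and 9.74, then 8.13, 7.94 and 8.12, and lastly 8.27, 7.96 and 8.08 at 6-8 h. Its difference was -2.02 ± 0.30 (limma, adjusted p = 2.25e-04), and the windows split into high values up to 2-4 h in F3 and M6 and low values from 4-6 h on.

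Of the catalytic beta subunits Prosbeta2 and Prosbeta5 fell. Prosbeta2, with the trypsin-like site, averaged 9.66 ± 0.29 (SD, n = 3 strains) in the first window and 7.99 ± 0.45 in the last, a log2 difference of -1.68 ± 0.26 (limma, adjusted p = 3.23e-04). Prosbeta5, with the chymotrypsin-like site, read 9.48, 9.47 and 8.83 at 0-2 h, then 8.20, 8.56 and 8.87, then 7.34, 7.64 and 7.64, and lastly 7.24, 7.60 and 7.71 at 6-8 h and fell by -1.74 ± 0.28 (limma, adjusted p = 4.07e-04). In both, every library of 0-2 h was above every library of 6-8 h. Prosbeta1 had a difference of -0.55 ± 0.30 and an adjusted p of 0.235 with limma, which did not pass. The difference between these subunits was not tested.

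In the base, Rpt5 had the largest fall among the ATPases. It read 8.44, 7.87 and 7.68 at 0-2 h, then 6.34, 5.73 and 7.30, then 5.35, 5.96 and 5.92, and lastly 5.81, 6.06 and 6.15 at 6-8 h, with a difference of -1.99 ± 0.37 (limma, adjusted p = 0.00114) and no overlap between 0-2 and 6-8 h. Rpt2, Rpt6, Rpt1 and Rpt3 also fell, by 1.79, 1.67, 1.44 and 1.13 on the log2 scale. All 4 other base subunits fell, with log2 differences from -1.65 (the scaffold Rpn2) to -1.10 (Rpn10). The ubiquitin receptor Rpn13 fell by 1.32 and Rpn1 by 1.27.

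The 5 subunits that did not pass were Prosalpha6, Prosbeta1, Rpt4, Rpn9 and Rpn11. The alpha subunit Prosalpha6 had a difference of -1.07 ± 0.45 and the ATPase Rpt4 one of -0.74 ± 0.35. For the lid subunit Rpn9 it was -0.70 ± 0.24 (limma, adjusted p = 0.0577). Rpn11, the deubiquitinating enzyme of the lid, was the 1 subunit with a positive difference, 0.18 ± 0.30 (limma, adjusted p = 0.803). Rpn11 read 7.52, 8.22 and 7.95 at 0-2 h, then 7.05, 7.28 and 7.71, then 6.62, 8.30 and 8.26, and lastly 7.73, 8.17 and 8.34 at 6-8 h. The tinWT values of 0-2 and 6-8 h were near each other, and the windows overlapped.

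Of the 6 paralogs, Rpn12R rose from 0-2 to 6-8 h, by 1.05 ± 0.35 (limma, adjusted p = 0.0487), in 3 of 3 strains. It read 2.68, 2.83 and 3.0 at 0-2 h, then 2.91, 3.07 and 3.35, then 4.12, 3.35 and 3.17, and lastly 4.11, 3.92 and 3.65 at 6-8 h and was called in 2 libraries. The call was lost under 15 of 21 alternatives. The other 5 paralogs did not pass, with differences from -0.64 (Rpt3R) to 0.49 (Prosbeta4R2).

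In all 27 members were called from 0-2 to 6-8 h (26 falls and Rpn12R), with a median of -1.24 over the 37. Leaving out the 0-2 h library of tinWT, F3 or M6 gave 21, 21 and 26 calls, with medians of -1.01, -1.21 and -1.47. Of all TSSs these fits called 6571, 4903 and 6968, against 7963 in the main fit. Leaving out the 6-8 h library gave 20, 18 and 19 calls, with medians of -1.21, -1.19 and -1.31. Of all TSSs those fits called 5068, 4087 and 5224. Without the strain F3 limma called 0 of all 45839 TSSs, and 22 of 37 members had an unadjusted p under 0.05. Without Cas9, 15 members and 4482 of all TSSs were called. From 0-2 to 6-8 h the total tags rose and the summed maternal markers fell, with the values given above, and their part in these falls was not tested.

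**Figure D3:**
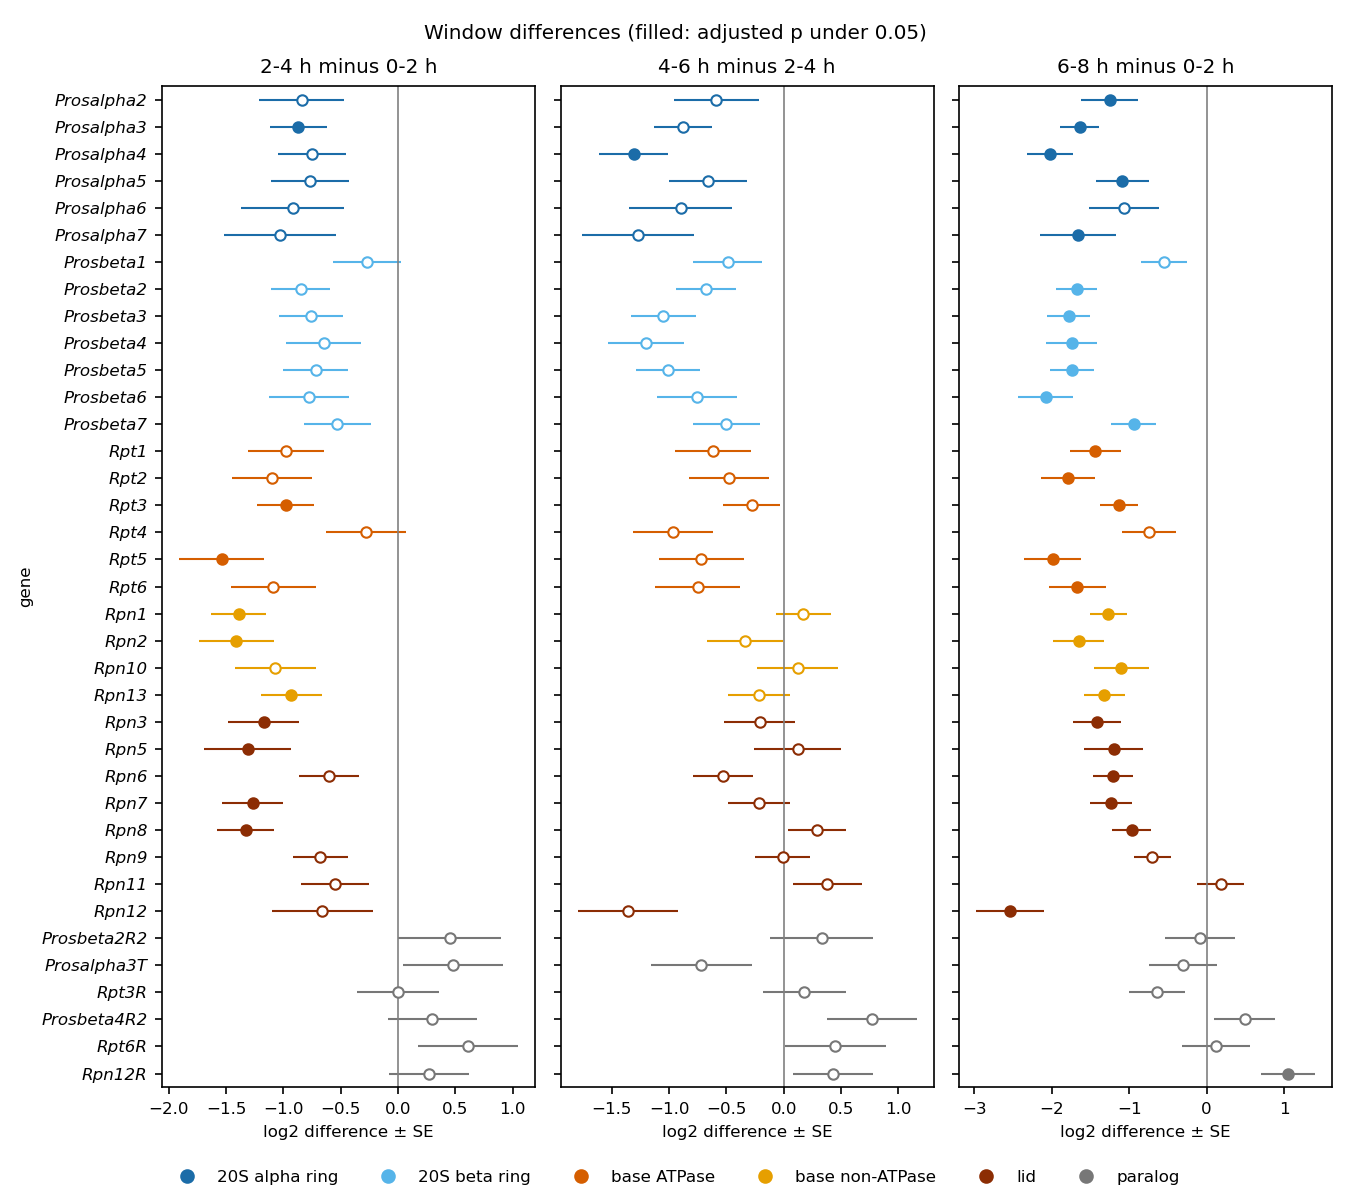
Log2 difference ± SE (limma) of each of the 37 genes for 2-4 minus 0-2 h, 4-6 minus 2-4 h and 6-8 minus 0-2 h. Filled points passed an adjusted p of 0.05, which 26 subunits did below 0 in the right panel, 10 in the left and 1 in the middle.

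The first step, from 0-2 to 2-4 h, held most calls of the regulatory particle. Of the 31 subunits 10 fell, 9 of 18 in the regulatory particle and 1 of 13 in the core (limma, adjusted p under 0.05), where 2.44% of all TSSs and 7.74% of the 1 row per gene fell. The medians were -1.08 for the regulatory particle and -0.77 for the core, against -0.82 for ribosomal proteins, -0.26 over 1 row per gene and 0.09 over all TSSs. All 31 subunits had a negative difference, and 21 of 31 were lower in 3 of 3 strains. The 10 that fell here were also called from 0-2 to 6-8 h, a comparison that shares the libraries of 0-2 h.

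Rpt5 had the largest fall of this step, -1.54 ± 0.37 (limma, adjusted p = 0.0214). The scaffold Rpn2 read 9.73, 9.13 and 8.35 at 0-2 h, then 7.27, 7.68 and 8.02, then 7.24, 7.25 and 7.45, and lastly 7.53, 7.46 and 7.26 at 6-8 h. Its fall of -1.41 ± 0.33 (limma, adjusted p = 0.0200) was followed by values between 7.24 and 7.53 in all 6 later libraries. For Rpn1 the difference was -1.39 ± 0.24 with the lowest adjusted p among members, 0.00595 (limma). In the lid, Rpn8, the partner of Rpn11, read 9.34, 9.44 and 9.22 at 0-2 h, then 7.72, 8.19 and 8.10, then 8.42, 8.10 and 8.36, and lastly 8.49, 8.38 and 8.22 at 6-8 h. Every library of 0-2 h was above every later library, and the difference was -1.33 ± 0.25 (limma, adjusted p = 0.00836).

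The scaffold subunit Rpn7 read 10.63, 10.48 and 9.77 at 0-2 h, then 8.83, 8.93 and 9.29, then 8.54, 8.93 and 8.91, and lastly 8.88, 9.14 and 9.13 at 6-8 h. It fell by -1.27 ± 0.27 (limma, adjusted p = 0.0131) and did not overlap. Rpn5, Rpn3, Rpt3 and Rpn13 also fell, by 1.31, 1.17, 0.98 and 0.93. In the core Prosalpha3 alone passed, at -0.87 ± 0.25 (limma, adjusted p = 0.0495). No member rose, and the highest differences were 0.61 for Rpt6R, 0.48 for Prosalpha3T and 0.45 for Prosbeta2R2. Prosbeta2R2 read 0.08, 0.57 and 0.06 at 0-2 h, then 0.97, -0.03 and 1.13, then 0.61, 1.98 and 0.47, and lastly 0.59, -0.04 and -0.09 at 6-8 h, and its windows overlapped.

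The count of this step depended on single libraries. Without the tinWT library of 2-4 h, 2 members fell, Rpn1 and Rpn8, and 779 of all TSSs were called, against 3056 in the main fit. The count was 2 as well without tinWT of 0-2 h or F3 of 2-4 h, but 0 without F3 of 0-2 h. All TSSs called there were 1203, 293 and 555. The member count was 3 to 4 without F3 or M6 of 4-6 h (1495 to 1648 of all TSSs). It was 4 to 5 without any 1 library of 6-8 h (1567 to 1822). Without M6 at 0-2 h it was 12 (2878) and without M6 at 2-4 h it was 13 (2787).

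From 2-4 to 4-6 h Prosalpha4 alone fell, by -1.31 ± 0.30 (limma, adjusted p = 0.0324), in 3 of 3 strains, where 1.72% of all TSSs fell. All 13 core subunits had a negative difference, with a median of -0.88, and 8 of them had an unadjusted p under 0.05. In the regulatory particle the median was -0.25, 13 of 18 were negative and 2 had an unadjusted p under 0.05. Of 10762 genes 1946 had an unadjusted p under 0.05. Ribosomal proteins had a median of -0.34. Rpn12 had a difference of -1.36 ± 0.44 and Prosalpha7 one of -1.27 ± 0.49, neither past the threshold. Prosalpha7, an alpha ring subunit, read 9.88, 8.24 and 8.09 at 0-2 h, then 7.07, 7.30 and 8.74, then 5.85, 7.07 and 6.40, and lastly 7.10, 6.91 and 7.22 at 6-8 h. At 2-4 h M6 was the high library and tinWT the low one, and at 0-2 h tinWT was high.

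Without the tinWT library of 2-4 h, 6 members fell in this step, Prosalpha2, Prosalpha3, Prosalpha4, Prosbeta6, Rpn12 and Rpt6. The median over all members was -0.65 in place of -0.50, and 1116 of all TSSs were called, against 967 in the main fit. The count was 2 without tinWT at 0-2 h, 3 without M6 at 0-2 h and 0 without any 1 of the other 9 libraries. All TSSs called in these fits were 1120, 1029 and 76 to 562. The member count was also 0 when libraries were centred on their medians, with 850 of all TSSs called. The highest differences were 0.77 for Prosbeta4R2, 0.45 for Rpt6R and 0.43 for Rpn12R, none of them called. Prosbeta4R2 read 0.07, 0.06 and 0.05 at 0-2 h, then 1.17, -0.05 and -0.04, then 1.66, 0.28 and 1.44, and lastly 1.48, 0.29 and -0.12 at 6-8 h, and Rpt6R read 1.07, 1.04 and 2.26 at 0-2 h, then 1.34, 3.18 and 1.67, then 2.34, 2.72 and 2.48, and lastly 0.88, 2.14 and 1.70 at 6-8 h. Both stayed low and overlapped between windows.

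Whether the steps differed was tested directly as the second step minus the first. This difference had a median of -0.01 in the core and 0.77 in the regulatory particle, but limma called 0 members, where 1.60% of all TSSs passed. At an unadjusted p under 0.05 there were 4 of 37 members, against 1357 of 10762 genes. The nearest were Rpn1 (1.55, adjusted p = 0.0758 with limma) and Rpn8 (1.62, adjusted p = 0.0760). The median over all members, 0.17, was -0.08 without the tinWT library of 2-4 h, which enters both steps.

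From 4-6 to 6-8 h limma called 0 members, where 0.513% of all TSSs passed. At an unadjusted p under 0.05 there were 2 of 37 members, against 1692 of 10762 genes. The median over members was 0.04. The highest differences were 0.76 for Prosalpha6, 0.64 for Prosalpha7 and 0.50 for Rpt4, and the lowest were -0.94 for Rpt6R, -0.87 for Prosbeta2R2 and -0.82 for Rpt3R. Prosalpha6 read 9.47, 8.32 and 7.98 at 0-2 h, then 7.25, 6.99 and 8.77, then 6.36, 7.28 and 6.66, and lastly 7.66, 7.48 and 7.44 at 6-8 h. Its values of 4-6 h were below those of 6-8 h in 3 of 3 strains.

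**Figure D4:**
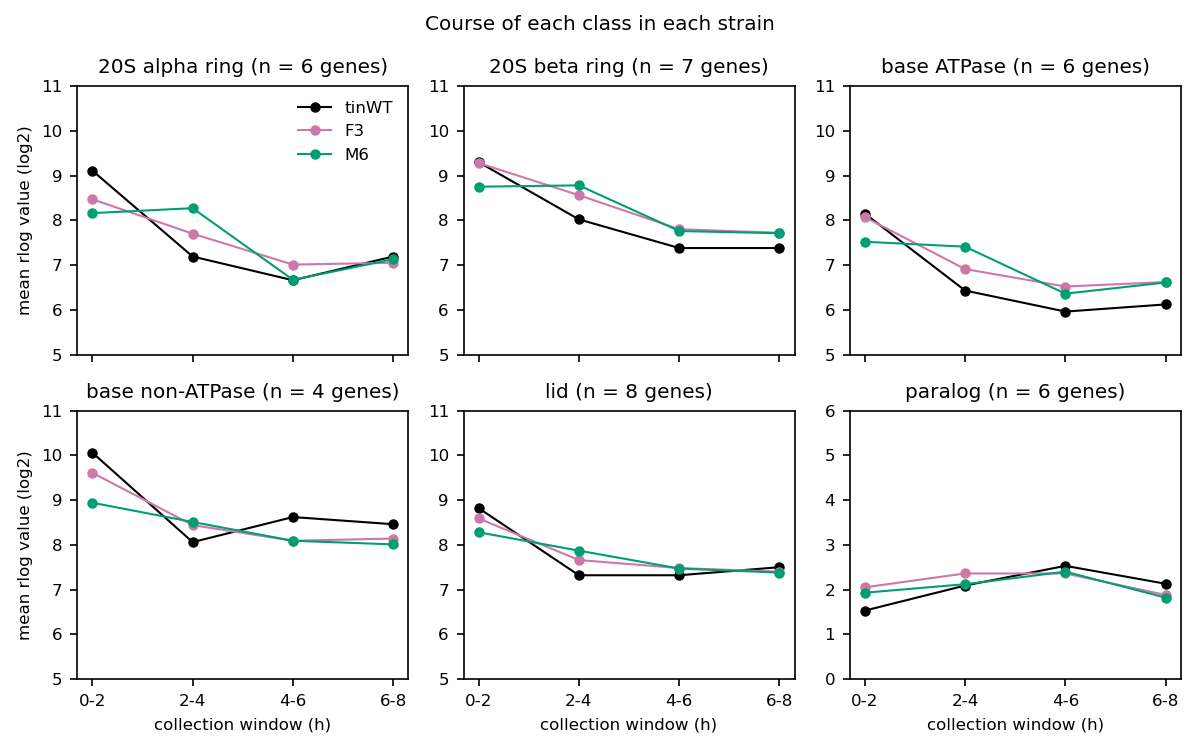
Mean rlog value (log2) of the genes of each class by collection window (h), with 1 line per strain. All 5 subunit classes are lower at 6-8 h than at 0-2 h in every strain, and tinWT has the lowest point of the 3 strains at 2-4 h in each of the 5.

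Between genotypes no member passed. With the window as covariate limma called 0 of 37 members in the comparison of 8 tinmDPE with 4 tinWT libraries, and 0.323% of all TSSs passed. At an unadjusted p under 0.05 there were 8 of 37 members, against 1725 of 10762 genes. The model has no strain term, so the windows of 1 strain count as replicates. In the matched comparisons each tinWT library is set against both F3 and M6. Rpn11 had the largest positive difference, 0.80 ± 0.22 (limma, adjusted p = 0.166), and was higher in 8 of 8 matched comparisons. At 4-6 h Rpn11 stood at 6.62 in tinWT against 8.30 in F3 and 8.26 in M6. In that window the later embryo markers had a median difference of 0.86, with 4 of 4 at an unadjusted p under 0.05 and 0 called (limma), and their part in the result was not tested. Without the tinWT library of 4-6 h the difference of Rpn11 over the course was 0.51, and without that of 2-4 h it was 0.91. Rpt4 read 6.83, 7.02 and 6.35 at 0-2 h, then 5.97, 6.50 and 6.89, then 4.59, 5.93 and 5.94, and lastly 5.22, 6.38 and 6.36 at 6-8 h. It was higher in 7 of 8 matched comparisons, with a difference of 0.77 ± 0.25, and Rpt1 had 0.74 ± 0.25. The median over all 37 members was 0.10, but -0.11 without the tinWT library of 2-4 h and 0.09 without that of 4-6 h. It was 0.29 without that of 0-2 h and 0.07 without that of 6-8 h, with 0 members called in each.

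The largest negative differences were -0.86 ± 0.29 for Prosbeta4R2, -0.55 ± 0.26 for Rpn10 and -0.54 ± 0.18 for Rpn1. The 6 ATPases of the base were all higher in tinmDPE, with a median of 0.18, and the 4 other base subunits all lower, with a median of -0.33. Without the tinWT library of 2-4 h, 4 of 6 ATPases were higher (median 0.13) and 4 of 4 other base subunits lower (median -0.53). Without that of 4-6 h these were 5 of 6 (0.27) and 4 of 4 (-0.26), and without that of 6-8 h 6 of 6 (0.16) and 4 of 4 (-0.32). Without the tinWT library of 0-2 h, 6 of 6 ATPases were higher (median 0.37), but 2 of 4 other base subunits were lower (median -0.18). The opposite signs within the base therefore depended on that library. The ribosomal proteins had a median of 0.21 and all TSSs one of 0.00. With the strain as a correlated replicate block, Prosbeta2 and Rpn11 were called, with 684 of all 45839 TSSs called there, against 148 in the main fit. Prosbeta2 was higher in tinmDPE in 8 of 8 matched comparisons, by 0.66 ± 0.19 (limma, adjusted p = 0.189). Its difference was 0.72 without the tinWT library of 2-4 h and 0.51 without that of 4-6 h. Between F3 and M6, which share a genotype, limma called 0 members, and 0.00218% of all TSSs passed. At an unadjusted p under 0.05 there were 0 members, against 358 of 10762 genes.

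Within a window the tinWT arm is 1 library, so the spread behind the following tests comes from the pairs of F3 and M6 alone, and tinWT is assumed to vary like them. A change of the genotype difference between windows was called for 0 members (limma F test of the interaction), where 4.95% of all TSSs passed. At an unadjusted p under 0.05 there were 9 of 37 members, against 2052 of 10762 genes. The lowest adjusted p was 0.0957, for Prosalpha2. Without F3 or M6 at 0-2 h that window keeps 1 library per genotype, and more of all TSSs passed than in the main fit. The member calls of those fits are therefore not read. Within the windows 0-2, 4-6 and 6-8 h limma called 0 members each, where 0.301%, 0.777% and 0.367% of all TSSs passed. At unadjusted p under 0.05 there were 8, 6 and 3 of the 31 subunits in these windows, against 1888, 1803 and 1077 of 10762 genes.

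At 2-4 h 3 subunits passed under that assumption, with the tinWT library below both others. In this direction 0.676% of all TSSs and 218 of the 10762 genes passed. Prosalpha4 stood at 8.58 in tinWT against 9.81 in F3 and 9.74 in M6, a difference of 1.19 ± 0.22 (limma, adjusted p = 0.0320). The ATPase Rpt6 read 9.30, 8.90 and 8.38 at 0-2 h, then 6.87, 8.08 and 8.34, then 7.41, 6.69 and 6.94, and lastly 7.09, 7.27 and 7.20 at 6-8 h, and its difference at 2-4 h was 1.35 ± 0.28 (limma, adjusted p = 0.0457). The lid scaffold Rpn3 read 8.87, 9.13 and 8.99 at 0-2 h, then 7.18, 8.01 and 8.30, then 7.94, 7.41 and 7.52, and lastly 7.78, 7.43 and 7.55 at 6-8 h, with 0.97 ± 0.20 (limma, adjusted p = 0.0473). The comparison rests on the single tinWT library of 2-4 h, has no value without it and holds no spread among tinWT libraries. In that library the 4 maternal markers were also lowest and 4 of 4 later embryo markers highest, and their part in the result was not tested.

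In that window tinWT was the lowest of the 3 strains for 26 of 31 subunits and for 40.2% of the 10762 genes, and 23 of 85 ribosomal proteins passed in the same direction. At 0-2 h tinWT was the highest strain for 21 of 31 subunits, against 43.6% of genes. Of the 3 calls, 2 were left after quantile normalization and 1 when libraries were centred on their medians. None was left without a trend in the variance prior or among TSSs above the 25th percentile. Leaving out 1 tinmDPE library leaves 1 library per genotype in its window, so member calls of those fits are not read. The 3 calls therefore have no check by leaving out a library. The median over the 37 members was 0.52, and it was 0.66 without F3 at 2-4 h and 0.38 without M6 at 2-4 h.

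**Figure D5:**
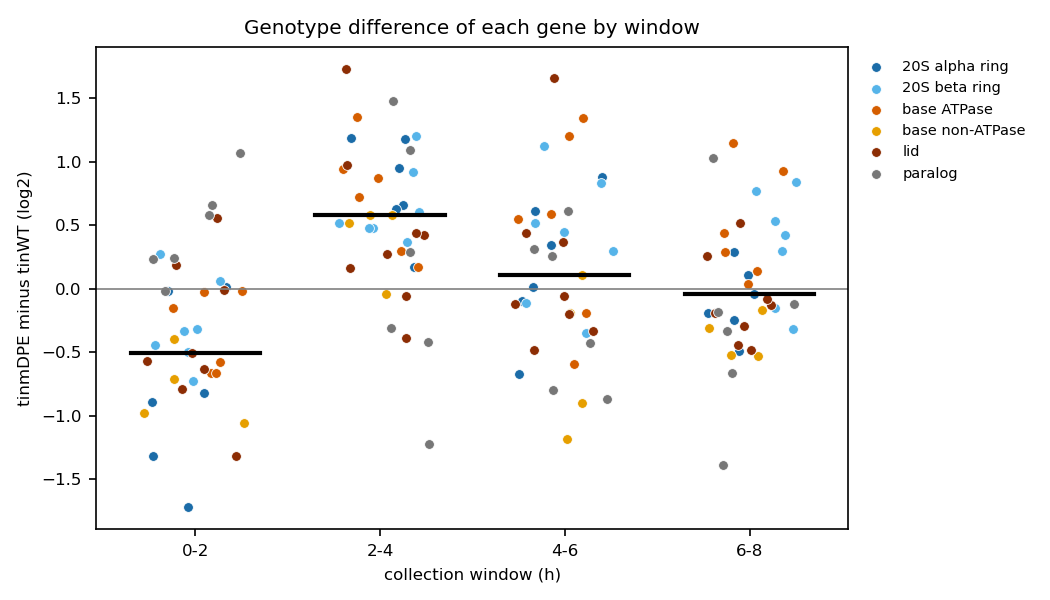
Difference between tinmDPE and tinWT (log2, limma model of group means) of each of the 37 genes in each window (h), coloured by class, with the median of the 31 subunits as a black bar. The bar moves from -0.51 in the first window to 0.58 in the next, then 0.11 and -0.04.

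The called position of the start was compared between the ends of the course. For 20 subunits a position was called in all 6 libraries of 0-2 and 6-8 h, and the median position was the same base at both ends for 15 (75.0%, against 71.6% of 3430 genes). In 1 of 20, the ATPase Rpt3, the positions of 6-8 h lay apart from those of 0-2 h by 20 bp or more in all libraries (5.00%, against 4.05% of genes), a share near the background. Its median position moved 50 bp downstream. The median position of Rpt2 moved by 46 bp and that of Rpn11 by -47 bp (negative is upstream), but in both the positions of the windows overlapped. For Rpn2 and Rpn1 the moves were -14 and 3 bp. Prosbeta3 and Rpt5 were called at the same base in 12 of 12 libraries.

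The changes of subunits with and without a motif were set side by side. From 0-2 to 6-8 h the median log2 difference was -1.43 in the 18 with the core and -1.25 in the 13 without. In the first step the medians were -0.98 and -0.75. The 6 subunits with Motif 1 had a median of -1.25 from 0-2 to 6-8 h and the 25 without one of -1.44. These medians are descriptions and the differences between them were not tested.

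Genes that build, load or control the proteasome were read by the same rule. Of 14 assembly and regulation genes, 4 fell and 1 rose from 0-2 to 6-8 h (limma), with a median of -0.65, where 20.4% of the 1 row per gene fell and 14.3% rose, so the shares are near the background. Pomp, the chaperone that matures the core, read 9.97, 9.84 and 9.18 at 0-2 h, then 8.11, 9.20 and 9.45, then 7.61, 7.68 and 7.63, and lastly 7.11, 7.24 and 7.57 at 6-8 h. It fell by -2.36 ± 0.33 (limma, adjusted p = 1.27e-04) without overlap. Sem1, a small lid subunit outside the naming rule, read 9.36, 9.42 and 8.96 at 0-2 h, then 7.32, 7.36 and 7.63, then 7.40, 7.56 and 7.24, and lastly 6.94, 7.44 and 7.78 at 6-8 h. Its fall of -1.81 ± 0.28 was in the first step (limma, adjusted p = 0.00329).

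The deubiquitinating enzyme Uch-L5 fell by 1.63 and the unfoldase TER94 by 1.27 over the course. The gene that rose was cnc, which has a product known in this species as an activator of proteasome genes under stress. The rise is that of the row chosen for cnc, and which product is made from this start was not tested. The row read 5.90, 5.92 and 6.24 at 0-2 h, then 7.20, 6.85 and 6.41, then 8.22, 7.04 and 6.88, and lastly 8.13, 7.28 and 7.27 at 6-8 h. Its difference was 1.54 ± 0.32 (limma, adjusted p = 0.00290), and the libraries of 6-8 h were all above those of 0-2 h.

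Of the 13 listed genes for ubiquitin and its enzymes 12 had a row, and 6 of these fell from 0-2 to 6-8 h (limma), against the 20.4% of the 1 row per gene that fell, with a median of -0.82. The ubiquitin hydrolase Uch read 10.15, 9.47 and 8.42 at 0-2 h, then 6.10, 7.89 and 7.70, then 5.64, 5.20 and 5.54, and lastly 4.52, 4.93 and 4.53 at 6-8 h, a fall of -4.68 ± 0.46 (limma, adjusted p = 6.39e-06). The conjugating enzyme Ubc4 fell by -3.39 ± 0.36 (limma, adjusted p = 1.44e-05). Both were larger falls than any of the 31 subunits. The conjugating enzymes ben and Ubc6, the activating enzyme Uba1 and the ubiquitin fusion gene RpL40 fell by 1.98, 0.95, 0.84 and 1.17. The polyubiquitin gene Ubi-p5E did not pass, with a difference of -0.06 ± 0.23 at a level of 11.77 to 12.94. Between genotypes limma called 0 of these genes in both lists. At an unadjusted p under 0.05 there were 3 of 14 and 2 of 12, against 1725 of 10762 genes.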

How the data were processed

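csRNA-seq libraries of 12 embryo collections were analysed, and the 12 matching input libraries were not analysed here. Per the submitters' processing notes the tools were STAR 2.7.10a, HOMER and edgeR on dm6, and their roles are not given in the sources used here. The authors merged the TSS calls of the 12 libraries by strand and quantified tags at each TSS with HOMER, per the file headers, and the deposited values are regularized log values on a log2 scale, made over the 12 libraries together. Low values are thereby shrunk, and precision is limited by having 1 library per strain and window. The position called in each library is a deposited coordinate of the authors. The number of value columns not used was 0.

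All 45839 TSSs were fitted with limma 3.58.1 in R 4.3.3 (lmFit, eBayes with a trend), with Benjamini-Hochberg adjustment over all TSSs and a threshold of 0.05. Window contrasts had the strain as replicate block, since each strain is a line followed over 4 windows, so the pairing comes from the strain. The genotype comparison had the window as covariate, F3 against M6 came from window and strain, and the contrasts within windows and their interaction from group means. On simulated data 160 of 200 TSSs shifted by 2 (log2) were recovered for 2-4 against 0-2 h among 45839, with 6 other TSSs called. For tinmDPE against tinWT it was 198 of 200, with 14 others. The simulated noise was independent between libraries, without strain effects, and the shifted TSSs had a mean above 2. These rates do not show how well smaller differences, or those that strain and genotype share, are found. Tables and motifs were made with Python 3.11.15 and pandas 2.3.3, and motifs were searched in the RefSeq dm6 genome after chromosome lengths had been compared.

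The members and lists were chosen with earlier results of these data known. Values in every library are given for the highest and lowest member of each class, for the 3 largest rises and falls of each step and of the genotype comparison, and for members called between genotypes; Prosbeta5, Prosbeta6, Rpn7, Rpn8 and the list genes shown in full were added after their values were seen. Alternatives were quantile normalization, centring, a filter at the 25th percentile of the mean, no trend, no replicate block, a correlated block, and leaving out libraries and strains.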

Additional observations from a re-analysis of the deposited data

How the results depend on the processing

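Most counts of called members stayed within 1.5 times the main count, and the exceptions follow. Leaving out a whole strain moved the window results most. The F test over windows called 26 members, and 8 without Cas9, 0 without F3 and 6 without M6, with 2213, 0 and 1003 of all TSSs called. For 2-4 against 0-2 h it was 10, and 0 without Cas9, F3 or M6. For 4-6 against 2-4 h it was 1, and 0 without Cas9, F3 or M6, 0 after centring on the library median and 2 among TSSs above the 25th percentile. For 6-8 against 0-2 h it was 27, and 15 without Cas9 and 0 without F3. Without F3 limma called 0 of all TSSs in these contrasts. Leaving out 1 library at a time gave 13 to 26 members for the F test, 0 to 13 for 2-4 against 0-2 h, 0 to 6 for 4-6 against 2-4 h and 18 to 27 for 6-8 against 0-2 h. Over all TSSs these fits called 5234 to 8531, 293 to 2878, 76 to 1120 and 4087 to 8519 in that order.

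Between genotypes the strain as correlated replicate block called 2 members in place of 0, and 684 of all 45839 TSSs in place of 148. At 2-4 h the 3 calls were 2 after quantile normalization, 1 after centring, 0 among TSSs above the 25th percentile and 0 without a trend. Calls at 2-4 h with 1 library left out are not read. For the interaction, leaving out 1 tinmDPE library leaves 1 library per genotype in a window. More of all TSSs then passed than in the main fit, so member calls of those fits are not read. With no replicate block the window results were 25 members for the F test, 8 for 2-4 against 0-2 h, 1 for 4-6 against 2-4 h, 0 for 6-8 against 4-6 h and 26 for 6-8 against 0-2 h, so the block changed none of these counts by more than 1.5 times. The difference of Rpt6R from 0-2 to 2-4 h, 0.61, was -0.16 without strain F3. Centring moves all TSSs of 2-4 against 0-2 h from a median of 0.09 to -0.09, and the median of the members from -0.78 to -0.96. The causes were not tested. With 1 library per strain and window, a difference of the size of 1 on the log2 scale was often short of the threshold over 45839 tests.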

Other observations

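The COP9 signalosome, a complex related to the proteasome lid that removes NEDD8 from cullin ubiquitin ligases, was read by the same rule. Of 9 listed genes 7 had a row, and 6 of 7 fell from 0-2 to 6-8 h (limma, adjusted p under 0.05 over all TSSs), with a median log2 difference of -1.23. Of all TSSs 7.50% fell, and of the 1 row per gene 20.4%. The largest fall was that of CSN7, -1.69 ± 0.37 (SE), with an adjusted p of 0.00395 with limma. At 0-2 h CSN7 stood at 6.93 in tinWT against 8.09 in F3 and 6.86 in M6, and at 6-8 h at 5.24, 5.78 and 5.78, so the windows did not overlap. CSN5, the subunit that carries the enzyme site and is related to Rpn11, had a difference of -0.95 ± 0.33 with an adjusted p of 0.0570 (limma), which did not pass. From 0-2 to 2-4 h limma called 0 of 7, with a median of -0.35, where 2.44% of all TSSs and 7.74% of the 1 row per gene fell. At an unadjusted p under 0.05 there were 0 of 7, against 3729 of 10762 genes.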
